A study of Mus musculus with 15 samples.

Results

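Mucosal antimicrobial and oxidase genes of the mouse colon were taken as a list of 10 gene symbols. They were Ltf, Lcn2, Reg3b, Reg3g, Duox2, Duoxa2, Nox1, Noxo1, Pla2g2a and Ang4. Of these 10, 6 had a row in all 3 tables of counts, namely Ltf, Duox2, Duoxa2, Nox1, Noxo1 and Ang4, among 12897 genes with a row in any table. Lcn2, Reg3b, Reg3g and Pla2g2a were not analysed here. A gene had a row only when it reached 5 CPM (its reads scaled to a fixed library total) in 3 libraries of a table, so counts over these 6 genes do not stand for the 10.

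The colonic epithelium keeps bacteria off its surface with secreted proteins and with oxidants. Lactoferrin (Ltf) binds iron and is both a neutrophil granule protein and an epithelial secretion, and angiogenin 4 (Ang4) is a secreted ribonuclease with antibacterial activity that Paneth and goblet cells make. Duox2 is an NADPH oxidase that releases hydrogen peroxide and needs its maturation factor Duoxa2 to leave the endoplasmic reticulum, whereas Nox1 is a superoxide-producing oxidase of colon epithelium that works with the organizer subunit Noxo1.

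RNA of 15 distal colons of mice on the C57BL/6 (B6) background was sequenced, 3 mice in each of 5 groups. Irf1-/- mice lack a working interferon regulatory factor 1 in all cells from birth, so an effect cannot be placed in a cell type. Treated mice of both genotypes received azoxymethane (AOM), which alkylates DNA and gives colon tumours, in a dose of 7 mg/kg on D1, then dextran sulfate (DSS), which injures the epithelium, at 2% from D8 until D11, and were killed on D26. The other groups were untreated Irf1-/- mice and untreated B6 mice in 2 sets, called control set 1 and control set 2 below, and the labels give no age or sex for any group.

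Control set 1 was tabulated with the treated B6 mice and control set 2 with the untreated Irf1-/- mice. Libraries held 22266607 to 22869853 counted reads. Chi-square per degree of freedom between libraries of a group was 8.65 to 42.7, where counting error alone gives about 1, so over all genes mice of a group differed by more than counting error. Duoxa2 was an exception in untreated B6 mice, with a spread of mice of 6.19% of its mean in control set 1 and 1.26% in control set 2 against a counting error of 6.92% and 5.72%, so depth limited its precision there. Levels are CPM after TMM scaling (trimmed mean of M-values) over the 12370 genes of all 3 tables, with SD of 3 mice. Differences are log2 fold changes (FC) from edgeR's quasi-likelihood test over all genes of a comparison, with the standard error (SE) and the Benjamini-Hochberg adjusted p. Calling a gene required an adjusted p under 0.01 and an FC of 1.5 or more, and "rose" or "fell" is used only for called genes.

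The genotype was checked on Irf1 itself. Its level was 94.7 ± 19.8 CPM in untreated and 111 ± 11.7 in treated Irf1-/- colons, against 153 ± 8.92 in control set 1, 133 ± 6.92 in control set 2 and 208 ± 29.9 in treated B6 colons (SD, n = 3 mice each). Every Irf1-/- library lay below every B6 library, although reads were still counted on the gene. For the tissue, 3 of 6 listed markers of distal colon and rectum were in all tables (Hoxa13, Hoxb13 and Hoxd13), with Hoxb13 between 244 ± 31.5 and 325 ± 73.0 CPM in the groups. Of 9 small intestine markers, 2 were in all tables (Apob and Fabp2), and Fabp2 did not exceed a group mean of 35.1 CPM. Apob, the more abundant, was at 262 ± 17.4 CPM in control set 1, 227 ± 59.4 in control set 2 and 219 ± 51.0 in treated B6 colons, and at 132 ± 21.5 in untreated and 98.9 ± 21.2 in treated Irf1-/- colons. It was not called between untreated genotypes (log2 FC -0.78, adjusted p = 0.0893, edgeR quasi-likelihood test) or treated ones (-1.16, adjusted p = 0.0241, same test).

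To ask how AOM/DSS treatment changed these genes in each genotype, colons at D26 were compared with untreated colons. Of the 6 genes, 2 (Ltf and Duoxa2) rose in B6 mice relative to control set 1, against 0.0316% of the 12643 genes tested. The share depends on the tool, since DESeq2 and edgeR's exact test each called 4 of the 6 (Duox2 and Ang4 also) and 441 and 460 of all genes in either direction, where the quasi-likelihood test called 6. With the GC correction described below neither Ltf nor Duoxa2 was called in B6 mice, and with the replicate block Duoxa2 was not. In control set 1 only mouse 1 reached 5 CPM of Ang4, so Ang4 had its row in that table through the treated mice. Ltf, 1 of the 6, rose in Irf1-/- mice, against 0.205% of 12692 genes, and it was also the 1 called with DESeq2 and the exact test, which called 221 and 249 of all genes. In a model with 1 treatment effect for both genotypes and both control sets (15 libraries), called the common effect here, 3 of the 6 rose (Ltf, Duoxa2 and Duox2), against 1.1% of 12370 genes. In bulk tissue, a change in the number of cells of a type and a change of RNA per cell cannot be told apart for any of these genes.

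**Figure D1:**
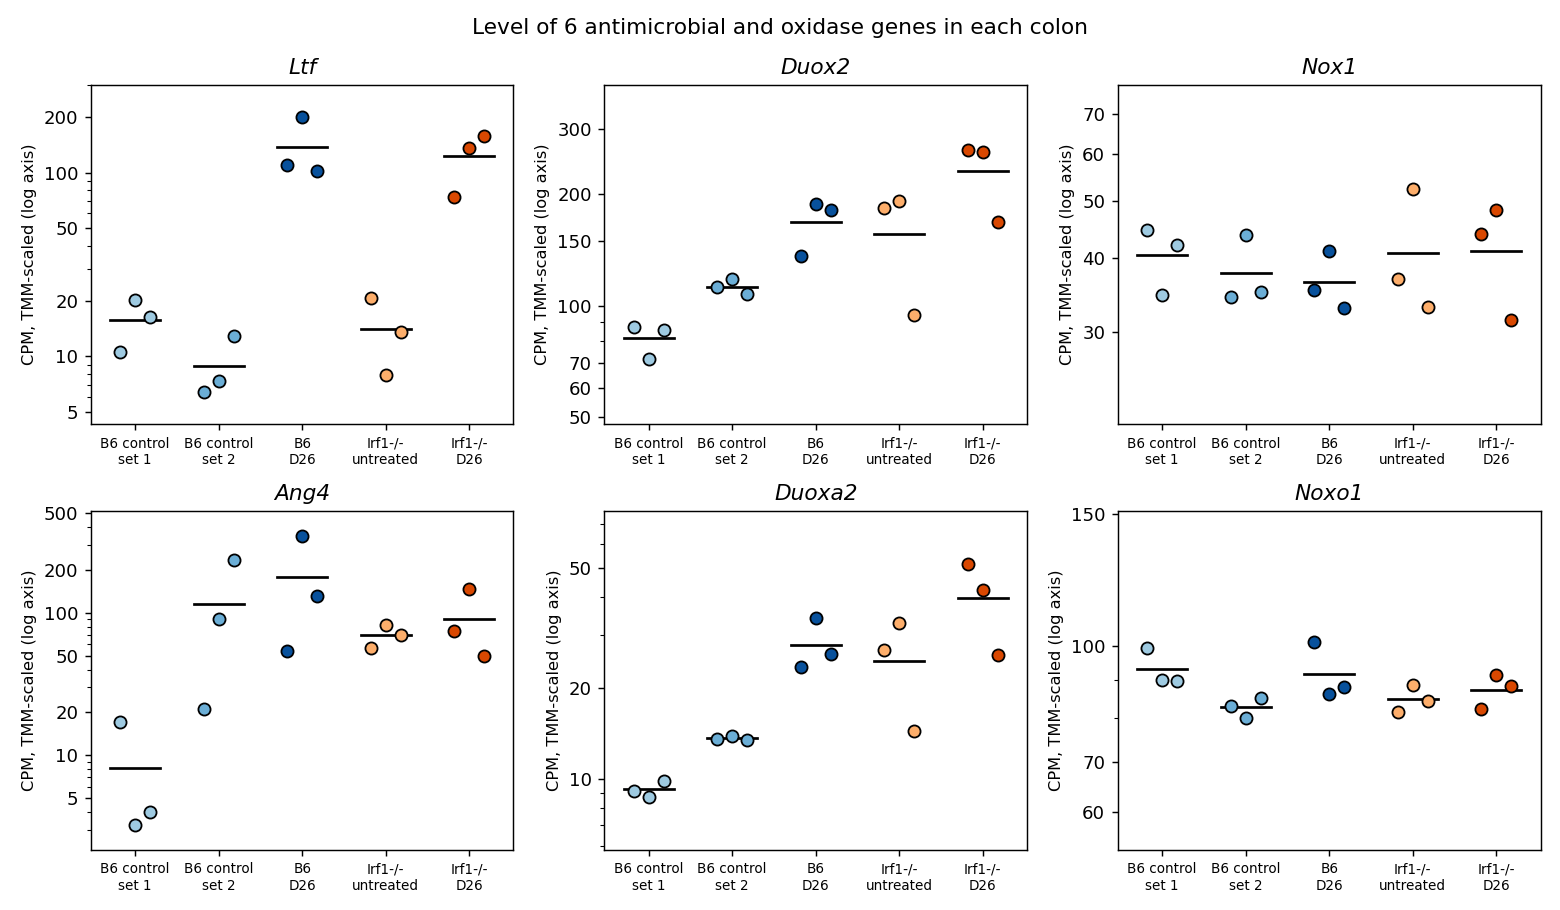
Level of each of the 6 genes in each of 15 colons (TMM-scaled CPM, log axis), with points for mice and bars for group means of 3 mice. Ltf lies between 74.1 and 200.5 CPM in the 6 treated colons and at or below 20.9 CPM in the 9 untreated ones, while Ang4 is at or below 17.1 CPM only in control set 1.

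Ltf, the iron-binding protein, was the only 1 of the 6 genes whose treated colons all lay above all untreated ones. The share of all genes with this separation is not given here. Levels of Ltf were 10.6, 20.1 and 16.3 CPM in control set 1, 6.41, 7.33 and 12.9 in control set 2, and 20.9, 7.92 and 13.6 in untreated Irf1-/- colons. At D26 it was at 111, 200.5 and 102 CPM in B6 and 74.1, 137 and 158 in Irf1-/- mice. The 6 treated colons lay above the 9 untreated colons by a wide gap, and treated colons of the genotypes overlapped. The ratio of means was 8.77 in B6 mice against control set 1, 15.5 against control set 2, and 8.71 in Irf1-/- mice.

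In B6 mice the log2 FC of Ltf was 3.14 (SE 0.30, adjusted p = 0.00685, edgeR quasi-likelihood test with Benjamini-Hochberg adjustment). In Irf1-/- mice it was 3.12 (SE 0.36, adjusted p = 0.00713, same test), and higher in 3 of 3 treated mice than in any untreated one. The common effect on Ltf was 3.33 (SE 0.26, 95% confidence interval 2.79 to 3.88, adjusted p = 3.28e-06, edgeR quasi-likelihood test). The difference of the responses, that of Irf1-/- minus that of B6 mice, was -0.01 for Ltf, with a 95% confidence interval of -1.14 to 1.12 (adjusted p = 0.994, same test). This interval includes differences past an FC of 1.5 in either direction. The value uses control set 1, and it was -0.83 (adjusted p = 0.491, same test) with control set 2.

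Calls of Ltf in a single genotype changed when single mice were left out. Its call in B6 mice was lost without any 1 mouse of control set 1 or without treated B6 mouse 3, while the log2 FC lay between 2.77 and 3.37 when each mouse was left out (adjusted p 0.000989 to 0.0469, edgeR quasi-likelihood test). Its call in Irf1-/- mice was kept only without treated mouse 1. Every treated Irf1-/- mouse was nonetheless at 74.1 CPM or more and every untreated one at 20.9 or less. In the common effect the call of Ltf was kept in all 15 fits that each left out 1 mouse.

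Ang4 had the widest spread of the 6 genes between mice of a group in 4 of the 5 groups, and untreated Irf1-/- colons were the exception. Its levels were 17.1, 3.26 and 3.99 CPM in control set 1 and 21.2, 89.9 and 235 in control set 2. Untreated Irf1-/- colons held 56.8, 82.3 and 69.3 CPM, and colons at D26 53.6, 347 and 132 in B6 and 74.2, 147 and 49.6 in Irf1-/- mice. Control set 1 was below all 12 other colons, which overlapped one another, and the 6 untreated B6 colons spanned a factor of 72.1. Ang4 belongs to a family of closely related ribonuclease genes, so its count is uncertain.

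Ang4 had its row beside control set 1 through the treated B6 mice, so its tests against that set are given only as description. In the main fits the quasi-likelihood test did not call Ang4, while DESeq2 and edgeR's exact test called it in B6 mice. It was called there with all 15 libraries in 1 fit (adjusted p = 0.00476, quasi-likelihood test) or without treated mouse 1 (adjusted p = 0.0076, same test), and between untreated genotypes with control set 1 (adjusted p = 0.0034, same test). Treated B6 colons had 21.9 times the mean of control set 1 but 1.54 times that of control set 2, and the log2 FC was 4.46 (SE 0.79, adjusted p = 0.0206, edgeR quasi-likelihood test) against set 1 and 0.64 (adjusted p = 0.593, same test) against set 2. Single mice move these ratios (3.26 to 17.1 CPM in set 1, 21.2 to 235 in set 2, 53.6 to 347 in treated mice). The common effect was 1.05 (SE 0.68, 95% confidence interval -0.39 to 2.50, adjusted p = 0.273, same test). The log2 FC in Irf1-/- mice was 0.38 (SE 0.33, adjusted p = 0.61, same test), and it was -0.17 without treated mouse 2. The difference of the responses, which uses control set 1, was -4.07 (SE 0.93, adjusted p = 0.0882, same test), and it was -0.24 (adjusted p = 0.939, same test) with control set 2.

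The summed level of goblet cell markers was lowest in control set 1. Of 13 listed goblet genes, 12 were in all tables, with Fcgbp the most abundant. Their summed level was 17985, 11044 and 17368 CPM in control set 1, 21589, 21665 and 27005 in control set 2, and 23710, 24064 and 22792 in untreated Irf1-/- colons. In treated B6 colons it was 28566, 36503 and 33820 CPM, and in treated Irf1-/- colons 29414, 32981 and 22338. In the common effect 11 of the 12 goblet genes had a positive log2 FC (median 0.32, against -0.00178 for all genes) and 1 was called, Spdef (0.60, adjusted p = 0.00859, edgeR quasi-likelihood test). Atoh1, Muc2 and Fcgbp had 0.30, 0.86 and 0.56 (adjusted p = 0.00927, 0.0131 and 0.0183, same test). In B6 mice against control set 1, all 12 had a positive log2 FC (median 0.64). With edgeR's quasi-likelihood test 0 were called there and 10 had an unadjusted p under 0.05, as did 3730 of 12643 genes. DESeq2 and edgeR's exact test each called 6 of the 12 there (Fcgbp, Clca3, Muc2, Spink4, Spdef and Agr2). These tools called 441 and 460 of all genes in either direction. In the difference of the responses 2 of the 12 were positive (median -0.58). With the quasi-likelihood test 0 were called in it and 6 had an unadjusted p under 0.05, as did 2108 of 12483 genes. The part of goblet cells in the Ang4 values was not tested. Between the control sets 11 of the 12 were higher in set 2 (median log2 FC 0.36), with 0 called by edgeR's quasi-likelihood test and 1, Agr2, by DESeq2 and by the exact test (7 at an unadjusted p under 0.05 with each). Agr2, Fcgbp and Muc2 had 0.62, 0.63 and 0.68 (adjusted p = 0.0814, 0.135 and 0.13, quasi-likelihood test), while Atoh1, Tff3 and Zg16 had 0.08, 0.10 and 0.05 (adjusted p = 0.599, 0.671 and 0.911, same test).

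Duox2 and Duoxa2 encode the oxidase and the factor that carries it to the membrane. Duox2 was at 87.7, 71.7 and 85.8 CPM in control set 1, 112, 118 and 107 in control set 2, and 184, 192 and 94.0 in untreated Irf1-/- colons. At D26 Duox2 was at 136, 189 and 181 CPM in B6 and 264, 260.2 and 168 in Irf1-/- mice. In B6 mice every treated colon was above every untreated one, whereas in Irf1-/- mice treated mouse 3 was below untreated mice 1 and 2.

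Duoxa2 was at 9.11, 8.72 and 9.85 CPM in control set 1, 13.6, 13.8 and 13.5 in control set 2, and 26.6, 32.8 and 14.4 in untreated Irf1-/- colons. At D26 Duoxa2 was at 23.5, 34.2 and 25.8 CPM in B6 and 51.5, 42.2 and 25.6 in Irf1-/- mice. The groups lay in the same order for both genes, with control set 1 lowest, then control set 2, untreated Irf1-/-, treated B6 and treated Irf1-/- colons. The control sets did not overlap for either gene, while untreated Irf1-/- and treated B6 colons overlapped for both, as did treated colons of the genotypes. Control set 2 and untreated Irf1-/- colons overlapped for Duox2 and not for Duoxa2. Annotation places 682 of the 1592 exon bases of Duoxa2 on those of its antisense neighbour Duoxa1, which was not analysed here, so reads of Duoxa1 may be among its counts if strand was not used in counting.

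In B6 mice the log2 FC against control set 1 was 1.60 for Duoxa2 (SE 0.15, adjusted p = 0.00685, edgeR quasi-likelihood test) and 1.05 for Duox2 (SE 0.14, adjusted p = 0.0129, same test), the latter not called here but called by DESeq2 and edgeR's exact test. Against control set 2, Duoxa2 had 1.04 (adjusted p = 0.0088, same test), again called, and Duox2 0.60 (adjusted p = 0.0194, same test). In Irf1-/- mice Duoxa2 had 0.70 (SE 0.31, adjusted p = 0.273, same test) and Duox2 0.56 (SE 0.26, adjusted p = 0.30, same test). The difference of the responses was -0.90 for Duoxa2 (SE 0.40, adjusted p = 0.275, same test) and -0.49 for Duox2 (SE 0.34, adjusted p = 0.486, same test). With control set 2 it was -0.33 and -0.02 (adjusted p = 0.726 and 0.986, same test), so neither response was shown to differ between the genotypes.

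In the common effect both rose, Duoxa2 by 1.03 (SE 0.19, 95% confidence interval 0.63 to 1.43, adjusted p = 0.00205, edgeR quasi-likelihood test) and Duox2 by 0.69 (SE 0.15, 95% confidence interval 0.37 to 1.02, adjusted p = 0.00547, same test). Duoxa2 was called in all 15 fits that each left out 1 mouse. Duox2 lost its call in 4 of them (adjusted p 0.0104 to 0.0207, same test), without control set 1 mouse 3, treated B6 mouse 2, treated B6 mouse 3 or treated Irf1-/- mouse 1. Its call was also lost with the GC correction (0.60, adjusted p = 0.0197, same test), with this and the replicate block (0.61, adjusted p = 0.0183), and with only control set 1 (0.80, adjusted p = 0.0126) or only control set 2 (0.57, adjusted p = 0.0221, same test for all). In B6 mice alone, the call of Duoxa2 was lost without any 1 mouse of control set 1 or without treated B6 mouse 3.

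Treated B6 libraries stood apart in how counts followed GC content. Log2 deviations of each library from the mean of all had slopes of 0.193, 0.136 and 0.285 per 10% GC in treated B6 colons, and of -0.124 to 0.0315 in the other 12 libraries. With each library corrected for GC content, Ltf had 3.09 (adjusted p = 0.0188, edgeR quasi-likelihood test) and Duoxa2 1.47 (adjusted p = 0.0214, same test) in B6 mice, so neither kept its call there. GC content of the longest annotated transcript was 51.0% for Ltf, 54.2% for Duox2 and 54.3% for Duoxa2. These slopes cannot be separated from the treatment of B6 mice, and their origin was not tested.

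The ratio of Duoxa2 to Duox2, each per kilobase of its longest annotated transcript, was examined after the values had been seen and was not tested. It was 0.399, 0.467 and 0.44 in control set 1, 0.464, 0.45 and 0.482 in control set 2, and 0.556, 0.656 and 0.587 in untreated Irf1-/- colons. At D26 it was 0.663, 0.695 and 0.547 in B6 and 0.75, 0.623 and 0.585 in Irf1-/- mice. The 6 untreated B6 colons were thus below the 9 others, and Duoxa2 varied more than Duox2 over the groups.

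**Figure D2:**
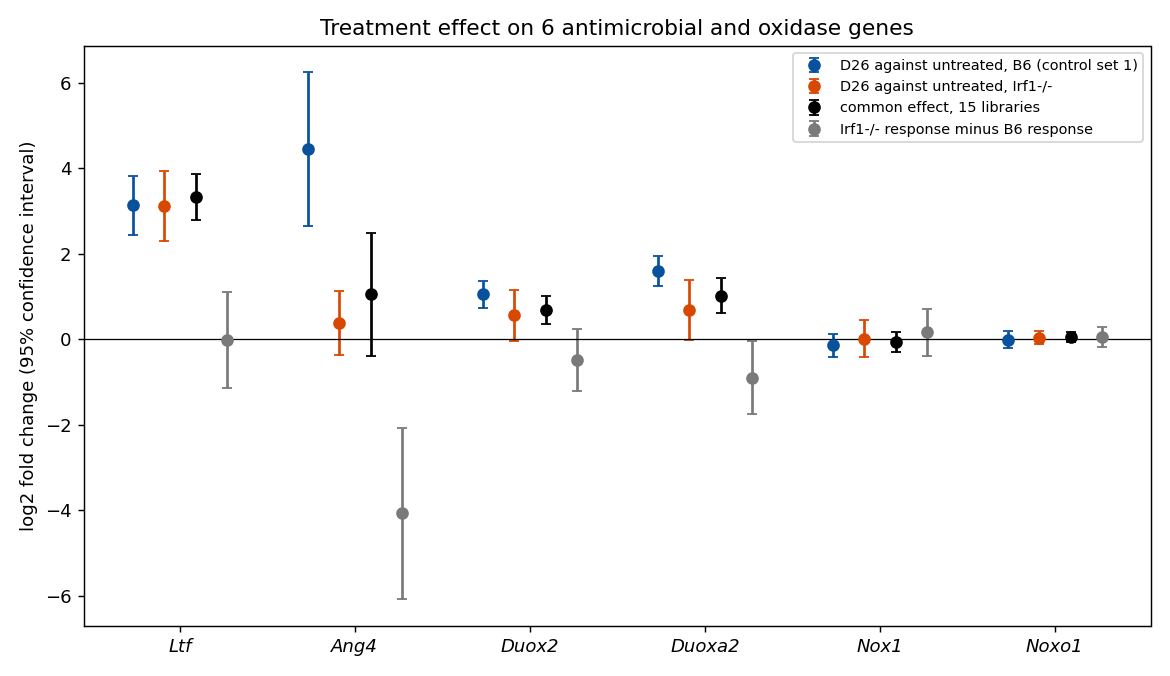
Log2 fold change of the 6 genes in 3 comparisons of treated with untreated colons, and the difference of the responses (Irf1-/- minus B6), with 95% confidence intervals from edgeR's quasi-likelihood fit. The 3 effects on Ltf lie between 3.12 and 3.33, and all intervals of Nox1 and Noxo1 include 0.

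Nox1 and Noxo1 had narrower ranges over the 15 colons than the other 4 genes. Nox1 lay between 31.5 and 52.2 CPM, with group means of 36.5 ± 4.17 in treated B6 to 41.2 ± 8.63 in treated Irf1-/- colons (SD, n = 3). Noxo1 lay between 80.02 and 101 CPM, with group means of 82.7 ± 2.59 in control set 2 to 93.0 ± 5.42 in control set 1. Treated and untreated colons overlapped for both genes in either genotype, apart from Noxo1 against control set 2. The common effect was -0.05 for Nox1 (95% confidence interval -0.29 to 0.18, adjusted p = 0.775, edgeR quasi-likelihood test) and 0.05 for Noxo1 (-0.06 to 0.17, adjusted p = 0.496, same test). These intervals exclude an FC of 1.5, though both signs turned with the GC correction described in the closing section. Annotation puts 2122 of the 3013 exon bases of Noxo1 on its antisense neighbour Tbl3 and 399 of 3307 of Nox1 on Cstf2. Group means of Tbl3 were 32.0 to 35.4 CPM and those of Cstf2 53.0 to 66.8, and how much of them the Noxo1 and Nox1 counts share was not tested.

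Per kilobase of the longest annotated transcript the order of the genes changed with treatment and control set. In control set 1 the mean level was 41.6 CPM per kilobase for Noxo1, 15.8 for Nox1, 13.4 for Duox2, 11.4 for Ang4, 5.80 for Duoxa2 and 5.72 for Ltf. Ang4 had the highest mean of the 6 in the 4 other groups, 163 (29.9 to 332 over 3 mice) in control set 2 and 98.0 (80.1 to 116) in untreated Irf1-/- colons. In treated B6 colons it was 250.2 for Ang4, 50.2 for Ltf, 41.0 for Noxo1, 27.6 for Duox2, 17.5 for Duoxa2 and 14.2 for Nox1. Ltf was thus lowest in control set 1, level with Duoxa2, and above Duox2 and Duoxa2 in treated B6 colons, where Noxo1 lay within its spread. In treated Irf1-/- colons Ltf was at 44.9 and Duox2 at 37.7 CPM per kilobase, within the spread of mice of each other.

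To ask whether Irf1 affects these genes, Irf1-/- colons were compared with B6 colons of the same state. Untreated Irf1-/- against control set 2 gave 0 called genes of the 6, against 0.405% of 12588 genes tested. At an unadjusted p under 0.05 there were 2 of the 6 with edgeR's quasi-likelihood test, and 1313 of all genes, and DESeq2 called 0 (1 at an unadjusted p under 0.05) and edgeR's exact test 0 (2). Only Duoxa2 did not overlap between these groups, a separation seen for 15.4% of all genes tested. Its log2 FC was 0.85 (SE 0.24, unadjusted p = 0.00521, adjusted p = 0.18, quasi-likelihood test), higher in 3 of 3 mutants. Duox2 had 0.48 (adjusted p = 0.474), Ltf 0.67 (adjusted p = 0.56) and Ang4 -0.73 (adjusted p = 0.769, quasi-likelihood test for all). The signs of Ltf and Ang4 depended on the control set, with -0.15 (adjusted p = 0.837) and 3.09 (adjusted p = 0.0034, same test) against control set 1.

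When each mouse was left out in turn, the oxidase pair was called only without untreated Irf1-/- mouse 3. It held 94.0 CPM of Duox2 and 14.4 of Duoxa2, below both other untreated mutants and, for Duox2, below all of control set 2. Without it, both genes were called (adjusted p = 0.00311 for Duox2 and 0.00348 for Duoxa2, edgeR quasi-likelihood test). The share of all genes called in that fit is not given here. Over the 6 fits that each left out 1 mouse, Duox2 had a log2 FC of 0.30 to 0.74 (adjusted p 0.00311 to 0.874, same test). Duoxa2 had 0.59 to 1.12 (adjusted p 0.00348 to 0.552, same test). Against control set 1, Duoxa2 was called with a log2 FC of 1.41.

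Treated Irf1-/- against treated B6 colons also gave 0 called genes of the 6 with edgeR's quasi-likelihood test, against 0.385% of 12483 genes. There was 1 at an unadjusted p under 0.05, and 2748 of all genes, and DESeq2 called 0 (2 at an unadjusted p under 0.05) and edgeR's exact test 0 (2). None of the 6 separated the groups, against 28.1% of all genes. The log2 FC was 0.50 for Duoxa2 (SE 0.24, adjusted p = 0.256), 0.44 for Duox2 (SE 0.19, adjusted p = 0.218), -0.18 for Ltf (SE 0.31, adjusted p = 0.769) and -0.99 for Ang4 (SE 0.60, adjusted p = 0.36, quasi-likelihood test for all). For the difference of the responses, 0 of the 6 were called, against 0.016% of 12483 genes. There were 2 at an unadjusted p under 0.05 with the quasi-likelihood test, and 2108 of all genes, while DESeq2 called 0 (1 at an unadjusted p under 0.05).

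Separation of treated from untreated libraries is frequent in these data. In B6 mice 4 of the 6 genes (Ltf, Duox2, Duoxa2 and Ang4) had all treated above all control set 1 libraries, as did 17.2% of all genes. Ang4 had its row beside control set 1 through the treated mice, so its separation there is not read as a result. In Irf1-/- mice all treated lay above all untreated libraries for Ltf, and for 12.5% of all genes. For separation of all treated from all untreated colons over both genotypes, no share of all genes is given. This holds for Ltf above and for Duox1, Socs3 and the macrophage sum below, whose separations are given as description.

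Libraries of the untreated B6 sets did not overlap for 4 of these genes, though genotype and labels are the same and the main test called none of the 6. In control set 2, relative to set 1, Duox2, Duoxa2 and Ang4 were higher in 3 of 3 mice and Noxo1 lower in 3 of 3, against 21.4% of genes whose libraries did not overlap. Called genes were 0 of the 6 with edgeR's quasi-likelihood test, against 0.0644% of 12417 genes, with 5 at an unadjusted p under 0.05, and 2134 of all genes. DESeq2 called 0 (4 at an unadjusted p under 0.05) and edgeR's exact test 1, Ang4 (4). The log2 FC was 0.46 for Duox2 (SE 0.09, adjusted p = 0.0525), 0.56 for Duoxa2 (SE 0.12, adjusted p = 0.0628), 3.83 for Ang4 (SE 0.81, adjusted p = 0.0637), -0.82 for Ltf (SE 0.28, adjusted p = 0.17) and -0.17 for Noxo1 (SE 0.07, adjusted p = 0.259, quasi-likelihood test for all). Comparisons with set 1 and with set 2 share the treated B6 libraries, and those of the responses share control set 1.

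**Figure D3:**
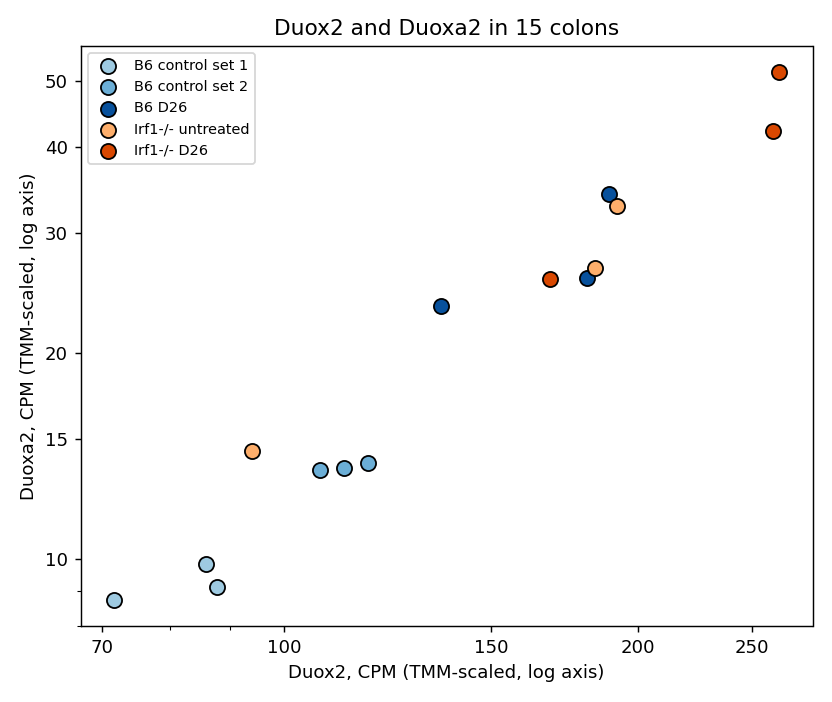
Duoxa2 against Duox2 in 15 colons (TMM-scaled CPM, log axes), coloured by group. The pair varies together, from 71.7 and 8.72 CPM in a mouse of control set 1 to 264 and 51.5 CPM in a treated Irf1-/- mouse.

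Co-variation was described on deviations of log2 CPM from the group mean, over 15 libraries and 15 pairs of the 6 genes. The libraries share their scaling over all genes, and no p was computed. Duox2 and Duoxa2 varied together within groups (Pearson r = 0.933, Spearman rho = 0.871), with r = 0.828 without the 2 libraries farthest from the median of Duox2. Nox1 followed both, with r = 0.777 for Duoxa2 (rho = 0.743, 0.633 without 2 libraries) and r = 0.735 for Duox2 (rho = 0.664, 0.578 without 2 libraries). Ltf had r = -0.235 for Duoxa2 (rho = -0.0929, 0.16 without 2 libraries) and r = -0.221 for Duox2 (rho = -0.193, 0.0366 without 2 libraries), so neither sign was kept. Nox1 and its organizer Noxo1 had r = 0.12 (rho = 0.121, 0.0464 without 2 libraries).

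The same description was made with the summed level of 16 gene lists, 96 relations in all. Smooth muscle markers ran opposite to the oxidase pair within groups, with r = -0.869 for Duox2 (rho = -0.779, -0.738 without 2 libraries) and r = -0.893 for Duoxa2 (rho = -0.804, -0.78 without 2 libraries). All 9 listed smooth muscle genes were in all tables, with Myh11 the most abundant. Their sum was 9291, 9270.0 and 8925 CPM in control set 1, 8448, 8344 and 9158 in control set 2, and 8506, 7888 and 10116 in untreated Irf1-/- colons. It was 9308, 9179 and 8952 CPM in treated B6 colons and 8105, 8858 and 9816 in treated Irf1-/- colons. Mouse 3 of each Irf1-/- group had the highest muscle sum and the lowest Duox2 of its group. Smooth muscle genes were called in 0 of 9 in the common effect with edgeR's quasi-likelihood test and with DESeq2 (0 at an unadjusted p under 0.05 with either, median log2 FC 0.03), and the part of muscle content in the differences between mice was not tested.

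Other lists also moved with the oxidases from mouse to mouse. Of 22 neutrophil genes only Cxcr2, Csf3r, Cd177 and Padi4 were in all tables, and their sum, with Cd177 the most abundant over all libraries, had r = 0.839 with Duox2 (rho = 0.782, 0.582 without 2 libraries) and 0.0625 with Ltf (rho = 0.182, 0.406 without 2 libraries). Taken singly, Cd177 had r = 0.769 with Duox2 (rho = 0.654, 0.458 without 2 libraries) and 0.197 with Ltf (rho = 0.3, 0.512 without 2 libraries), and Csf3r, Cxcr2 and Padi4 had 0.0738, -0.128 and -0.261 with Duox2 (rho = 0.118, -0.143 and -0.0857). The sum of 7 B and plasma cell genes, with Igj the most abundant, had r = 0.815 with Duoxa2 (rho = 0.782, 0.76 without 2 libraries). Goblet genes had r = 0.699 with Ang4 (rho = 0.761, 0.739 without 2 libraries), where Fcgbp alone had 0.698 (rho = 0.746) and the lineage factor Atoh1 0.0479 (rho = 0.0607), and the crypt base list 0.754 (rho = 0.679, 0.705 without 2 libraries). Mki67, a marker of dividing cells and the most abundant of that list, had r = 0.752 with Ang4 (rho = 0.693, 0.651 without 2 libraries), while Smoc2, Axin2 and Lgr5 had -0.0876, -0.356 and -0.583 (rho = -0.136, -0.304 and -0.507). Surface colonocyte genes had r = -0.26 with Duox2 (rho = -0.35), and macrophage genes -0.0845 (rho = -0.0786).

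Because lactoferrin is a neutrophil protein, the neutrophil markers are given in full beside Ltf. Ly6g, Ngp, Camp, S100a8, Mpo and Elane, which define the cell, were not analysed here. The sum of the 4 tested genes was 235, 227 and 257 CPM in control set 1, 248, 266 and 273 in control set 2, and 551, 470 and 317 in untreated Irf1-/- colons. It was 324, 351 and 300.5 CPM in treated B6 and 572, 667 and 388 in treated Irf1-/- colons. Cd177 rose in the common effect (log2 FC 0.75, adjusted p = 0.00943, edgeR quasi-likelihood test), a call lost in 13 of 15 fits that each left out 1 mouse. Cxcr2, Csf3r and Padi4 had -0.37, -0.09 and 0.04 (adjusted p = 0.00196, 0.498 and 0.745, same test). The median of these 4 genes was -0.02, with 2 of the 4 positive. Between untreated genotypes Cd177 had 1.46 (adjusted p = 0.0511, not called), and Cxcr2, Csf3r and Padi4 had -0.04, -0.03 and -0.14 (adjusted p = 0.918, 0.964 and 0.774, same test). The part of neutrophils in the Ltf values was not tested.

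Of 19 macrophage and monocyte genes 16 were tested in the common effect, all 16 with a positive log2 FC (median 0.53), against 6141 of all 12370 genes. C1qb, Lyz2, Ms4a7 and Tyrobp, 4 of the 16, rose, against 136 of all genes. Their sum, with Lyz2 the most abundant, was 706, 736 and 562 CPM in control set 1, 557, 598 and 549 in control set 2, and 482, 582 and 556 in untreated Irf1-/- colons. It was 752, 996 and 816 CPM in treated B6 and 739, 748 and 825 in treated Irf1-/- colons. All 6 treated sums were above all 9 untreated ones, although the lowest treated and the highest untreated sum were 739 and 736 CPM. Csf1r, C1qb, C1qc and Lyz2 had 0.52, 0.67, 0.54 and 0.59 (adjusted p = 0.000455, 0.000758, 0.0016 and 0.00288, edgeR quasi-likelihood test). The part of these cells in the results was not tested.

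The remaining marker lists had few called genes in the common effect. Of 13 Paneth genes 2 were tested, Lyz1 and Mptx2, the defensins were not analysed here, and Lyz1 rose while Mptx2 had -0.40 (adjusted p = 0.502, edgeR quasi-likelihood test). Mptx2 had 1.22 in B6 and -1.25 in Irf1-/- mice (adjusted p = 0.0593 and 0.174, same test), a difference of -2.46 (adjusted p = 0.108, same test), and 1.62 in control set 2 relative to set 1 (adjusted p = 0.064, same test), none of them called. Within groups its r with Ang4 was 0.405 (rho = 0.511, 0.266 without 2 libraries), and its part in the Ang4 values was not tested. All 15 surface colonocyte genes were tested, with a median of 0.05, and Car1 fell (-0.78, adjusted p = 0.00275, same test) while Cdx2 rose (0.64, adjusted p = 0.00936, same test). Ceacam1 and Krt20 had 0.53 and 0.53 (adjusted p = 0.00222 and 0.00407, same test). Of 7 crypt base genes 5 were tested, with a median of -0.14 and 0 called with the quasi-likelihood test or DESeq2 (2 at an unadjusted p under 0.05 with either), and Lgr5 had -0.43 (adjusted p = 0.000673, FC below 1.5). Of 10 B and plasma cell genes 7 were tested, with a median of 0.13 and 0 called with the same tests (0 at an unadjusted p under 0.05 with either), while Igj fell between the control sets (-1.39, adjusted p = 7.44e-05, edgeR quasi-likelihood test). All 7 were lower in control set 2 than in set 1 (median -1.15, 3 at an unadjusted p under 0.05) and higher in untreated Irf1-/- colons than in control set 2 (median 1.14, 7 at an unadjusted p under 0.05 and the smallest adjusted p = 0.162, edgeR quasi-likelihood test), and their part in the Duoxa2 values was not tested. Kit, the 1 of 8 mast cell genes tested in the common effect, had 0.28 (adjusted p = 0.00104, FC below 1.5). The mast cell proteases Mcpt1 and Mcpt2 had rows only in the table of treated and untreated Irf1-/- mice, which they reached through the treated mice, since at most 1 untreated mouse had 5 CPM of either. They were not called there with edgeR's quasi-likelihood test (2.53 and 2.67, adjusted p = 0.0273 and 0.0342). DESeq2 called both, and 221 of all genes, and with rows gained through the treated mice these values are given only as description. The distal colon list had a median of -0.12 and the small intestine list 0.16, with 0 called in each by edgeR's quasi-likelihood test or DESeq2 (1 at an unadjusted p under 0.05 in each list with either).

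Other genes of the same roles were read from 5 further lists. Of all 12370 genes, 136 rose, 58 fell and 6141 had a positive log2 FC in the common effect. Of 35 other antimicrobial proteins 12 were tested in the common effect, 10 with a positive log2 FC (median 0.24) and 2 called. These were the lysozymes Lyz1 (0.59, SE 0.11, adjusted p = 0.00282, edgeR quasi-likelihood test) and Lyz2 (0.59, SE 0.12, adjusted p = 0.00288, same test). Lyz1 was at 44.2 ± 11.5 CPM in control set 1 and 58.4 ± 10.7 in treated B6 colons, and at 39.0 ± 2.98 in untreated and 61.7 ± 3.51 in treated Irf1-/- colons. The lysozyme genes are near copies of each other, so their counts are uncertain, and each call was lost in some fits that left out 1 mouse (8 of 15 for Lyz1 and 6 of 15 for Lyz2). Wfdc2, a secreted protease inhibitor, had -0.51 (adjusted p = 0.00231, below an FC of 1.5) and the peptidoglycan-binding Pglyrp1 0.28 (adjusted p = 0.00618, same test).

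Of 20 other NADPH oxidase and peroxidase genes 14 were tested, 11 with a positive log2 FC (median 0.20) and 1 called. This was Duox1, the paralogue of Duox2 (0.60, SE 0.13, adjusted p = 0.00473, edgeR quasi-likelihood test). Its levels were 7.04, 6.80 and 9.56 CPM in control set 1, 8.39, 11.2 and 11.2 in control set 2, and 14.2, 14.2 and 9.80 in untreated Irf1-/- colons. At D26 it was at 14.3, 14.9 and 15.5 CPM in B6 and 15.9, 20.7 and 15.2 in Irf1-/- mice. All treated colons were above all untreated ones, although the lowest treated and the highest untreated level were 14.3 and 14.2 CPM, and the call was lost in 6 of 15 fits that left out 1 mouse. The phagocyte oxidase subunit Ncf1 had 0.47 (adjusted p = 0.0103, same test), and the superoxide dismutase Sod2 -0.18 (adjusted p = 0.0107, same test).

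Lactoferrin binds iron, and of 14 genes of iron withholding and transport 9 were tested, 5 with a positive log2 FC (median 0.13) and 1 called. Steap4, a metalloreductase, rose by 0.77 (SE 0.17, adjusted p = 0.00566, edgeR quasi-likelihood test). Its mean was 9.55 ± 0.631 CPM in control set 1, 8.06 ± 2.09 in control set 2, 11.6 ± 2.33 in treated B6, 11.3 ± 2.24 in untreated and 26.4 ± 7.19 in treated Irf1-/- colons, and the difference of the responses was 0.94 (SE 0.28, adjusted p = 0.133, same test). The call was lost in 5 of 15 fits that left out 1 mouse. Tfrc, the transferrin receptor, had -0.45 (adjusted p = 0.00976, below an FC of 1.5), Ftl1 0.22 (adjusted p = 0.0165) and Slc40a1 -0.52 (adjusted p = 0.0181, same test for all).

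Among secreted phospholipase A2 genes other than Pla2g2a, 8 of 11 were tested, 5 with a positive log2 FC (median 0.08). With edgeR's quasi-likelihood test and with DESeq2 0 were called, and 3 had an unadjusted p under 0.05 with either, as did 4645 of all 12370 genes with the former. Pla2r1 had 0.27, Pla2g2f 0.20, Pla2g2d -0.18 and Pla2g10 -0.11 (adjusted p = 0.0131, 0.0653, 0.123 and 0.203, quasi-likelihood test).

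Several listed genes are induced by IL-22, IL-17 and NF-kB signalling, the cytokine pathways best known for switching on epithelial antimicrobial genes. Of 34 genes of these pathways 27 were tested, 24 with a positive log2 FC (median 0.19) and 2 called. Socs3, a feedback inhibitor of STAT3, rose by 1.16 (SE 0.13, adjusted p = 0.000111, edgeR quasi-likelihood test) and was called in all 15 fits that left out 1 mouse. Its levels were 8.41, 10.5 and 8.13 CPM in control set 1, 7.94, 11.3 and 9.11 in control set 2, and 8.57, 9.41 and 7.85 in untreated Irf1-/- colons. At D26 Socs3 was at 13.4, 25.9 and 18.3 CPM in B6 and 24.1, 18.1 and 21.1 in Irf1-/- mice, above all untreated colons. The neutrophil-attracting chemokine Cxcl5 rose by 1.13 (SE 0.20, adjusted p = 0.00154, same test), also in all 15 such fits. Nfkb1 and Stat3 had 0.20 and 0.21 (adjusted p = 0.00761 and 0.00927, same test), below an FC of 1.5. Of these 5 lists, Lyz1 (0.66, adjusted p = 0.00772, same test) and Socs3 (1.29, adjusted p = 0.00665, same test) were also called in Irf1-/- mice alone.

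By Pearson r of log2 CPM over the 15 libraries, the genes most like Ltf were Ier3 (r = 0.969, rho = 0.929), Rgs12 (r = 0.95, rho = 0.918) and Jup (r = 0.941, rho = 0.893). Those most like Duoxa2, members aside, were Creb3l4 (r = 0.933, rho = 0.896), Ptprn2 (r = 0.922, rho = 0.936) and 1600029D21Rik (r = 0.919, rho = 0.921). For Ang4 they were Slc2a10 (r = 0.908, rho = 0.736), 9530053A07Rik (r = 0.894, rho = 0.882) and Fcgbp (r = 0.877, rho = 0.871), and for Nox1 Exosc9 (r = 0.768, rho = 0.796), Kctd12 (r = 0.757, rho = 0.675) and Wdr61 (r = 0.755, rho = 0.70). These are the 3 highest r for each of the 4 genes among all 12370 genes other than the 6, and they include the differences between groups. Within groups, Ltf had r = 0.602 with Ier3, 0.74 with Rgs12 and 0.449 with Jup. 1600029D21Rik was at 2.29 to 4.39 CPM in control set 1, below the 5 CPM that gave a row. It had its row beside that set through the treated B6 mice, so its likeness to Duoxa2 is given only as description.

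The 3 genes called in the common effect are shown with their promoters, since Duox2 and Duoxa2 vary together and start back to back on chromosome 2, with 673 bases between their starts and opposite strands. Sequences are from RefSeq (build GRCm38.p6, while the authors' build was mm9), matched by symbol for 9 of the 10 genes, and run 5′ to 3′ from 250 bases before the gene start to 50 after. Ltf is chr9:111019042-111019341 (plus strand), Duox2 chr2:122298178-122298477 (minus strand) and Duoxa2 chr2:122298650-122298949 (plus strand). Capitals mark the AP-1 motif TGANTCA, and the other motifs searched have no match in these windows.
Ltf: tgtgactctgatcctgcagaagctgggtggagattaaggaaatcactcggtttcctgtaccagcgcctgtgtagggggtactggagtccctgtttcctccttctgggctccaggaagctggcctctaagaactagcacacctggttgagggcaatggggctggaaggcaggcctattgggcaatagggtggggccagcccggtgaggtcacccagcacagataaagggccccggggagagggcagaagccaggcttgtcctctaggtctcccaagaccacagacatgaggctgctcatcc
Duox2: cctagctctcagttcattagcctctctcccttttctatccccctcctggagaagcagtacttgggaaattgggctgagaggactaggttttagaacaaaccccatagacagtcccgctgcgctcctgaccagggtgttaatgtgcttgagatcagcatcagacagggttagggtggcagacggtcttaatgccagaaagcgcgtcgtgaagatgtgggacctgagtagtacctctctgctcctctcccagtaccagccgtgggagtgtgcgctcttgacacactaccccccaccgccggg
Duoxa2: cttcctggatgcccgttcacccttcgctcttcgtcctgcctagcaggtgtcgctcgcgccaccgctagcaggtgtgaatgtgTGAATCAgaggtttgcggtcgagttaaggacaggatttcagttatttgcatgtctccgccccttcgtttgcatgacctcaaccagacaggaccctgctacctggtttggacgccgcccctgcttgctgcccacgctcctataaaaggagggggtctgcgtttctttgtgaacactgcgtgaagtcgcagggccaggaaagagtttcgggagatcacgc

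Motifs were searched on both strands of these windows. The AP-1 motif was in 2 of the 9 windows (Duoxa2 and Ang4) and in 7.81% of 32851 promoters of the same length. The STAT motif TTCNNNGAA was in 2 (Reg3b and Ang4) and in 8.3% of all promoters, and the NF-kB motif in 2 (Reg3g and Nox1) and in 8.46%. The interferon-stimulated response element GAAANNGAAA was in 0 of the 9 and in 3.44% of all promoters. In the Ang4 window, the only 1 with 2 motifs, they did not overlap. A match describes letters and not binding.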

How the data were processed

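The authors deposited raw read counts per gene from stranded, rRNA-depleted 50 bp paired-end libraries of 15 mouse distal colons, made per the labels with TopHat2 2.0.9, Bowtie 1.0.0, featureCounts and edgeR on mm9. The strand setting of counting is not stated. The authors' CPM and log CPM (36 columns), log2 fold changes and p-values were not used here. The untreated Irf1-/- counts, which are in 2 tables, were used once.

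Counts were scaled by TMM and fitted with the quasi-likelihood model of edgeR 4.0.16 (R 4.3.3) over all genes of the tables a comparison needs, with p-values adjusted by Benjamini-Hochberg. No gene filter was added. Log2 CPM had a prior count of 2. Depth is given with the results.

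The members and the 16 hand-written gene lists were chosen with earlier results of these data known. Named genes are the members with rows, up to 4 genes of each list with the smallest p in the common effect, called genes, markers that define a cell type, and the 3 genes most like Ltf, Duoxa2, Nox1 and Ang4. Irf1 was named to check the genotype, and Tbl3, Cstf2 and Duoxa1 for their exon overlap with members.

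Alternatives were RLE size factors, DESeq2 1.42.0, edgeR's exact test, a filter of 10 CPM in 3 libraries, all 15 libraries in 1 fit, an adjusted p under 0.05, the replicate number as a block, a lowess correction for GC content (span 0.3), both together, the other or both control sets, and each mouse left out. The common effect with 1 control set was added after seeing the data. The longest transcript of each gene, with its length and GC content, and exon overlaps came from GENCODE M21 (GRCm38), matched by symbol. Figures used Python 3.11.15 and matplotlib 3.10.9.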

Additional observations from a re-analysis of the deposited data

How the results depend on the processing

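The common effect on Ltf and Duoxa2 kept its direction and its call under all 10 other settings and in all 15 fits that left out 1 mouse. Duox2 lost its call in the common effect with the GC correction (0.60), the replicate block with it (0.61), only control set 1 (0.80) and only control set 2 (0.57), with adjusted p of 0.0126 to 0.0221 (edgeR quasi-likelihood test). The common effect with 1 control set was chosen after seeing the data. The cause was not tested for any change given here.

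In B6 mice, 2 of the 6 genes were called. The count was 4 with DESeq2, the exact test, all 15 libraries in 1 fit, or an adjusted p under 0.05. Each of these settings also called more of all genes, 441 with DESeq2 and 460 with the exact test against 6. It was 1 with the replicate block, 0 with the GC correction and 1 with both, and 0 to 4 when each mouse was left out. With the block, Duoxa2 had 1.58 (adjusted p = 0.0217, edgeR quasi-likelihood test). Same-numbered libraries deviated from their group means with r of -0.223 to 0.248 across genes over all comparisons, and no comparison had every r over 0.1, so mice were not paired. In Irf1-/- mice the count of 1 became 0 with a filter of 10 CPM (Ltf, adjusted p = 0.0102, same test) and was 0 to 1 when each mouse was left out.

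For untreated genotypes the count of 0 (2 at an unadjusted p under 0.05 with the quasi-likelihood test, 0 called with DESeq2 and the exact test) became 2 with control set 1 (Duoxa2 and Ang4) and 1 with both sets, and was 0 to 2 when each mouse was left out. Between the B6 sets it was 1 with the exact test, and 0 to 1 when each mouse was left out. The count in the common effect was 2 to 3. Counts over all genes are not given here for the other control sets or for fits without 1 mouse. The counts of members there are thus not set against a share of all genes. Duox2 and Duoxa2 within groups had r = 0.828 without 2 libraries and 0.933 with a prior count of 0.5.

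With the GC correction, alone and with the replicate block, values that changed sign were Nox1 in B6 mice (0.0041 and 0.0069), Noxo1 between treated genotypes (0.043 and 0.045) and, in the common effect, Nox1 (0.041 and 0.039), Noxo1 (-0.043 and -0.043), Padi4 (-0.050 and -0.054) and Myh11 (-0.0049 and -0.0039). With the correction alone they were Tagln (-0.0014) and Ltf in the difference of the responses (0.035). With control set 2 and with both sets, Noxo1 had 0.16 and 0.073 in B6 mice and -0.11 and -0.024 in the difference. For untreated genotypes, control set 1 gave -0.15 for Ltf, -0.14 for Noxo1 and 3.09 for Ang4, and both sets -0.052 for Noxo1 and 1.18 for Ang4. Pou2af1 had -0.032 in the common effect with only control set 1.

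Leaving out each mouse gave log2 FC of -0.084 to 0.047 for Noxo1 in B6 mice, and -0.12 to 0.24 for Nox1 and -0.17 to 0.67 for Ang4 in Irf1-/- mice. Between untreated genotypes it gave -1.23 to 0.32 for Ang4 and -0.11 to 0.24 for Nox1, and between treated ones -0.39 to 0.20 for Ltf. It gave -0.31 to 0.37 for Ltf in the difference of the responses, and -0.11 to 0.031 for Nox1 and -0.29 to 0.028 for Mki67 in the common effect.

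With 3 mice a group, a spread such as that of Ang4 leaves wide intervals. Depth was a limit for Duoxa2 in untreated B6 mice, whose spread was within counting error. Genes without a row cannot be described.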
